A study of Mus musculus with 12 samples.

Results

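The response of mouse mesenchymal stromal cells (MSCs) to the compound A1 alone was followed across all genes of a raw count table. Members were the 4 samples titled A1 and the 4 untreated control samples, 8 of the 12 samples of the series; the other 4 received A1 and ovalbumin and are used here only for the shared estimate of spread and for values set side by side. All 3 groups consist of primary, wild type (WT) C57BL/6 bone marrow stromal cells, which the study's methods describe as flushed from the femurs of female mice aged 6 to 8 weeks, grown in medium with 10% serum and frozen at passage 9 or 10. A1 samples received 50 μM A1 for 6 h at a confluency of 80%, the A1 + OVA samples 50 μM A1 and 1 mg/ml ovalbumin for 6 h, and the control samples nothing. The labels do not say whether the 4 samples of a group came from separate cultures or mice, so that p-values measure only the spread between these samples, which may be technical.

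MSCs are adherent stromal cells of the marrow that can form bone, fat and cartilage cells, and they sustain blood stem cells through secreted factors such as CXCL12 and the KIT ligand. A1 is a variant of the Accum molecule, a bile acid (cholic acid) joined to a nuclear localization peptide of hnRNPA1, and the study used it to make MSCs present antigen. Beside messenger RNAs, a polyadenylated library also holds long non-coding RNAs (lncRNAs), which are often transcribed next to, or on the strand opposite to, a protein-coding gene. It also holds the transcripts of pseudogenes, the inactive copies of genes.

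Each control sample had 15644991 to 16881995 counts and each A1 sample 13702348 to 14347870. All 22 listed MSC surface and niche genes were above 3 counts, but Thy1 (CD90) and Lepr, both well-known MSC markers, had too few reads to be tested, as had the matrix genes Dcn and Lum. Markers of other cells were low. S100a8, S100a9, Cd3e and Hba-a1 were at 0 in all 8 samples, and the 15 macrophage markers, of which Itgam, Tyrobp and Aif1 were at 0, summed to 10.9 to 12.1 CPM in the control samples and to 15.4 to 17.8 CPM in the A1 samples, with Cd14 the most abundant. Of these markers 3 were tested, of which Cd14 (0.57) and Mrc1 (1.01) were higher. Their part in the results below was not tested. CPM are counts scaled to a common normalized library size.

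A large share of the measured genes differed between A1 and control MSCs. Of the 12521 genes tested, 3633 (29%) passed edgeR's quasi-likelihood test with higher values (adjusted p-value under 0.05, Benjamini-Hochberg) and 3689 (29.5%) with lower values, together 58.5%. The balance of the directions depended on the scaling: with upper-quartile normalization 3157 genes were higher and 4158 lower, and with no count filter 3416 and 4029. The median log2 fold change was -0.006. Differentially expressed genes (DEGs), which also had to differ by at least 0.5 on the log2 scale, numbered 1159 upregulated (9.26%) and 1443 downregulated (11.5%), or 20.8% in all. Among the DEGs, 375 rose and 464 fell by at least 1 on the log2 scale, and 85 rose and 50 fell by at least 2, with fewer increases than decreases at the lower and more at the higher threshold. The 4 A1 samples lay wholly above or wholly below the 4 control samples in 51.3% of the tested genes. In a bulk sample, fewer cells of a type and less RNA per cell cannot be told apart.

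**Figure D1:**
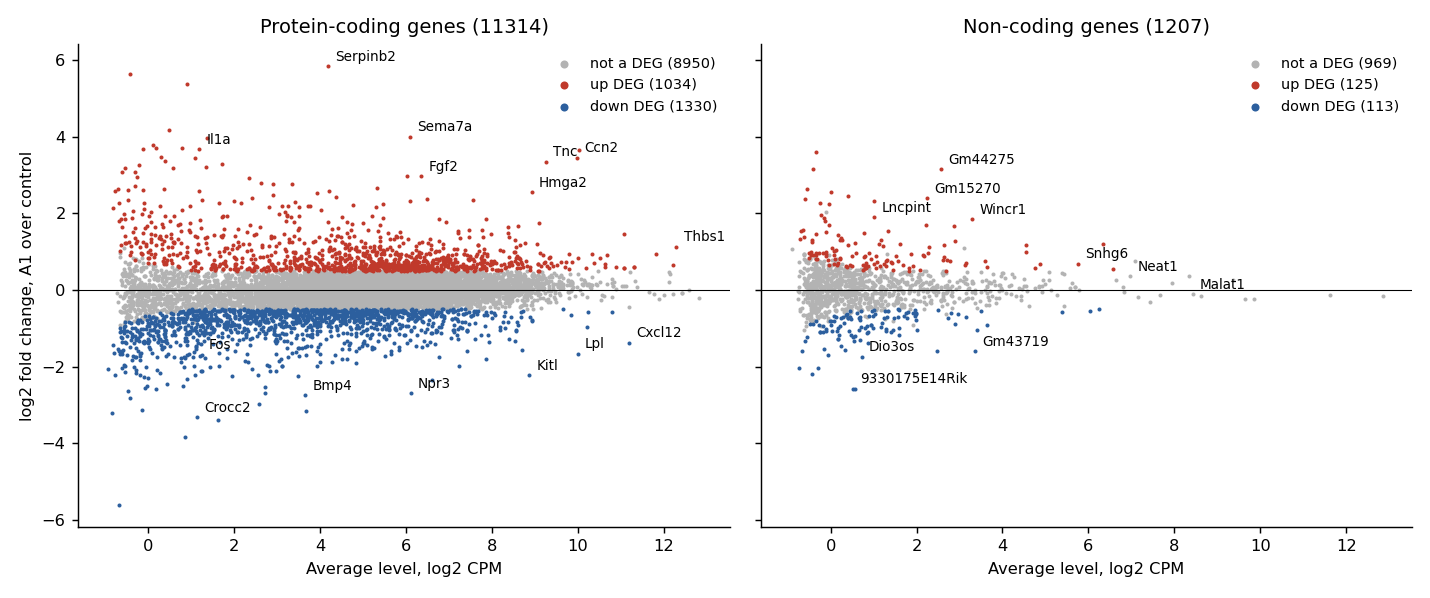
Change with A1 (log2 fold change against control, vertical) by average level over all 12 samples (log2 CPM, horizontal), with 1 point a gene, for protein-coding genes on the left and all other genes on the right. Upregulated DEGs are red and downregulated DEGs blue; the left panel holds 1034 and 1330 of them and the right panel 125 and 113.

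The largest protein-coding increase was that of Serpinb2, which encodes an inhibitor of plasminogen activators and stood at 0.183, 0.643, 0.853 and 0.370 CPM in the control samples and at 25.2, 30.5, 33.3 and 31.8 CPM in the A1 samples. Its log2 fold change was 5.85, with a standard error (SE) of 0.17 (edgeR adjusted p = 3.07e-19). Sema7a, a membrane-anchored semaphorin, was at 7.79, 6.13, 7.13 and 7.34 CPM in control and at 101.7, 115, 117 and 122 CPM in A1 samples, a log2 fold change of 4.002 (SE 0.068, edgeR adjusted p = 8.67e-27). The 2 groups were far apart for both genes, with the lowest A1 sample more than 10-fold above the highest control sample.

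The alarm cytokine gene Il1a was barely detected without A1, at 0.183, 0.351, 0.183 and 0.308 CPM, and reached 3.12, 3.81, 2.92 and 3.71 CPM with it. Il1rl1, the gene of the IL-33 receptor, was at 14.5, 14.95, 14.3 and 12.9 CPM in control and at 108, 110.0, 115 and 116 CPM in A1 samples. Its log2 fold change was 2.99 (SE 0.055, edgeR adjusted p = 6.82e-26). For Fgf2, a growth factor of fibroblasts and endothelium, control samples held 13.5, 18.2, 16.1 and 16.9 CPM and A1 samples 123, 127, 127 and 130.2 CPM. None of these 3 genes showed any overlap between groups, as the choice of the largest changes required. Over all tested genes, 51.3% showed none. Replicates of Il1rl1 and Fgf2 in the A1 group stayed within a narrow band. Ccn2 (connective tissue growth factor) and Tnc (tenascin C), both proteins of the wound matrix, combined a large fold with high abundance. Ccn2 was at 114, 133, 120.2 and 130.3 CPM in control and 1165, 1377, 1531 and 1399 CPM in A1 samples, and Tnc at 81.2, 86.0, 99.99 and 101 CPM and 794, 1057, 819.9 and 1085 CPM. Their log2 fold changes were 3.46 and 3.35. Other members of the 15 largest coding increases were the serine protease gene Prss46 (3.97), Pbp2 (3.29), Foxn1, known as a regulator of thymic epithelium (3.20), the chemokine gene Cxcl14 (2.93), the muscle actin gene Acta1 (2.80) and Tmem200a (2.77). In control samples Prss46, Pbp2 and Foxn1 averaged only 0.196, 0.560 and 0.316 CPM, so that few reads set their folds.

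Among the largest coding decreases, Crocc2, a relative of the ciliary rootlet gene, was at 4.63, 4.73, 4.20 and 5.61 CPM in control and 0.566, 0.373, 0.374 and 0.571 CPM in A1 samples, a log2 fold change of -3.32. Ppp1r3c, which brings a phosphatase to glycogen, was at 14, 12.6, 13.3 and 12.9 CPM and 1.56, 1.94, 1.57 and 1.57 CPM. Bmp4, a bone morphogenetic protein, was at 27.5, 26.2, 27.8 and 27.1 CPM in control and 4.04, 3.81, 4.56 and 3.78 CPM in A1 samples, and its log2 fold change was -2.74 (SE 0.09, edgeR adjusted p = 3.06e-20). All 4 A1 samples were under all 4 control samples for each of them, as the choice of these genes required. Npr3, the clearance receptor of natriuretic peptides, fell from 153 ± 9.70 CPM to 23.7 ± 0.552 CPM (mean ± SD, n = 4), a log2 fold change of -2.69. Igf1, the growth factor, fell from 22.4 ± 0.459 to 4.71 ± 0.446 CPM, and Pappa2, a protease that frees IGF from its binding proteins, changed by -2.25 on the log2 scale. Npy1r, a receptor of neuropeptide Y, changed by -2.70, and Dio3, which inactivates thyroid hormone, by -2.22. The matrix gene Sned1 (-3.16), the chemokine gene Cxcl1 (-2.35), Enpep, an aminopeptidase that degrades angiotensin II (-2.12), Tgm5 (-2.21) and Gm765 (-3.39) also belonged to the 15 largest coding decreases.

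**Figure D2:**
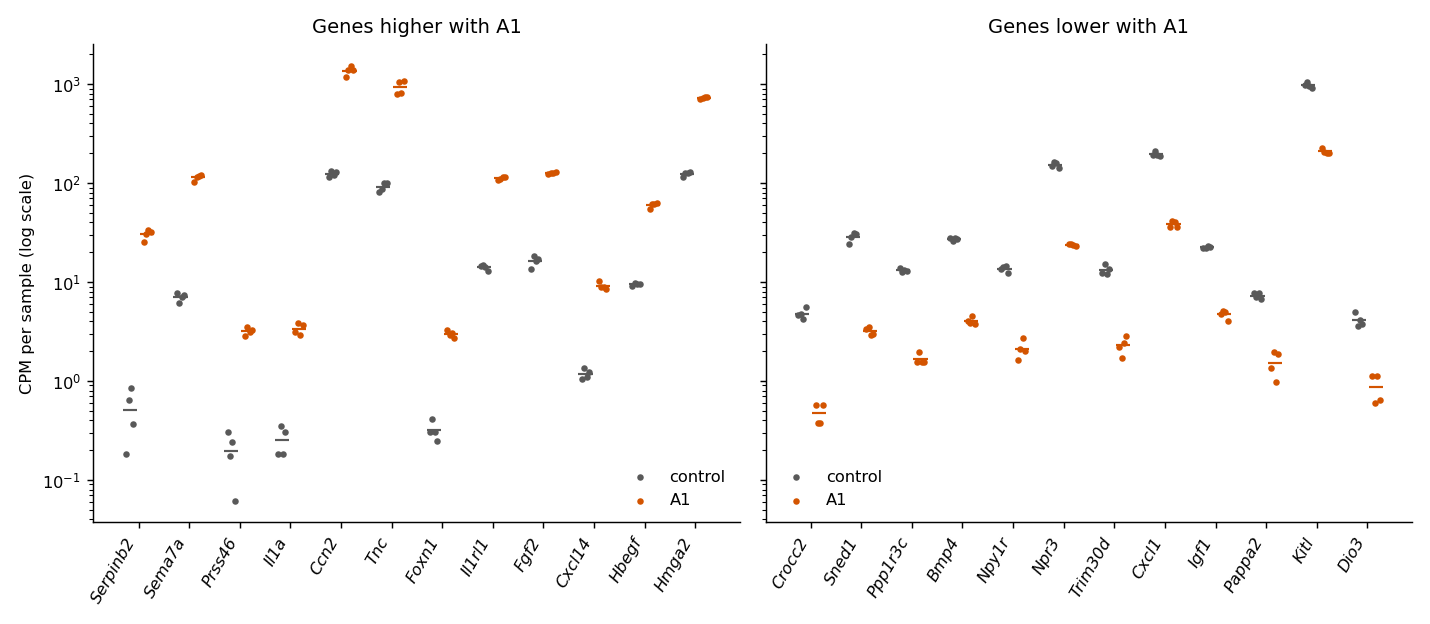
CPM in each of the 4 control (grey) and 4 A1 (orange) samples, on a log axis, for 12 genes higher and 12 genes lower with A1; short lines mark group means. In every gene shown the groups do not overlap, which was a condition of the choice for most of them. The A1 means run from 0.471 CPM for Crocc2 to 1368 CPM for Ccn2.

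The size of the change could not be given for some very rare transcripts. Cxcl5, a neutrophil chemokine, had 85 counts in the control samples together and 1 in the A1 samples (21, 33, 17 and 14 against 0, 1, 0 and 0), and no fold is given for it. In all, 12 upregulated DEGs had 3 counts or fewer in every control sample and 4 downregulated DEGs in every A1 sample.

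Ranked by the gain or loss of CPM, abundant genes came to the fore. Thbs1 (thrombospondin 1) rose from 2693 ± 242 to 5878 ± 549 CPM, Acta2 (smooth muscle actin) from 2214 ± 122 to 4235 ± 87.1 CPM and Spp1 (osteopontin) from 1130.3 ± 42.3 to 3126 ± 139 CPM (mean ± SD, n = 4). Actb changed by 0.66 and Vim by 0.48 on the log2 scale, and their abundance placed them in the same group. Cxcl12 went the other way, from 3962, 3956, 3793 and 3692 CPM in the control samples to 1535, 1445, 1536 and 1419 CPM in the A1 samples. Kitl, the KIT ligand, was at 973, 1055, 957 and 921 CPM in control and 224, 208, 201 and 201 CPM in A1 samples (log2 fold change -2.23, SE 0.047, edgeR adjusted p = 2.16e-24). Lpl, which takes up lipoprotein fat, fell from 1812 ± 107 to 573 ± 15.1 CPM and Scd2, a fatty acid desaturase, from 1765 ± 44.7 to 906 ± 16.1 CPM. The mitochondrial mt-Co1 lost a large amount of CPM at a log2 fold change of -0.21.

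Promoters of some of the genes with the largest changes, and of Hmga2 and Casp12 from runs of neighbouring genes described further on, are shown. They were searched for the letters at which stress- and growth-linked factors are known to bind. Each line gives the 250 bases before the RefSeq transcription start in GRCm38.p6, read 5′ to 3′ on the gene's strand, with capitals marking matches on either strand to AP-1 (TGANTCA), the cyclic AMP element (TGACGTCA), the antioxidant element (TGACNNNGC), the E-box TCACGTG, the TATA box (TATAAA) or the heat shock pair (GAANNTTC). The first 4 belong to increases and the last 4 to decreases.
Serpinb2 (chr1:107511173-107511422, plus strand): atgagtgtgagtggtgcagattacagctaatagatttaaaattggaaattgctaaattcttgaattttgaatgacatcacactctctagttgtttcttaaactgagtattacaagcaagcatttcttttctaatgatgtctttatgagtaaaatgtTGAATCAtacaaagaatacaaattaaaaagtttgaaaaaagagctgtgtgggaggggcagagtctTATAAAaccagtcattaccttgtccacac
Sema7a (chr9:57939862-57940111, plus strand): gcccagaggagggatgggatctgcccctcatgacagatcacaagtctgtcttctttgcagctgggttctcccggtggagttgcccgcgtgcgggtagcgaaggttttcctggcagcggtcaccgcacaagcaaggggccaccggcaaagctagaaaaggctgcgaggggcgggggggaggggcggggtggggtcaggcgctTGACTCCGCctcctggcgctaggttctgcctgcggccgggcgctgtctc
Il1a (chr2:129309973-129310222, minus strand): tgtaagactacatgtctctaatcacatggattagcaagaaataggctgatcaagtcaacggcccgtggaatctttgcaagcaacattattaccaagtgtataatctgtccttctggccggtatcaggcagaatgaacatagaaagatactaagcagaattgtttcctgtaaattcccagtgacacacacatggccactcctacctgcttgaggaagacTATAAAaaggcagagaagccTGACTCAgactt
Hmga2 (chr10:120476470-120476719, minus strand): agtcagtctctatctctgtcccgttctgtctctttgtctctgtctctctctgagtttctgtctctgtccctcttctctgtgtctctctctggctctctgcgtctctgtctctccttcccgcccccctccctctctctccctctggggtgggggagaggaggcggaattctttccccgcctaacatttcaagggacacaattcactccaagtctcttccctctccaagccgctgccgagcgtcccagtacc
Gm765 (chr6:98342755-98343004, minus strand): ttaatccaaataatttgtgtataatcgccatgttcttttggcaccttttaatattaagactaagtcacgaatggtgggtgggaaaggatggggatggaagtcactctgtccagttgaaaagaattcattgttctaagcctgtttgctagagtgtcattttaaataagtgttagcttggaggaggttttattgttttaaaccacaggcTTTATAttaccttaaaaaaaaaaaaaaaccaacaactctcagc
Crocc2 (chr1:93168173-93168422, plus strand): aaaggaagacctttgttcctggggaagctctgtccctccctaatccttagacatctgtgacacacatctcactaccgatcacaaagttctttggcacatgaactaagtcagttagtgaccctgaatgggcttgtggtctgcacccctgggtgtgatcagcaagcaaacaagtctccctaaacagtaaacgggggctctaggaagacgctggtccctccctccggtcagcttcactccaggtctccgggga
Ppp1r3c (chr19:36736605-36736854, minus strand): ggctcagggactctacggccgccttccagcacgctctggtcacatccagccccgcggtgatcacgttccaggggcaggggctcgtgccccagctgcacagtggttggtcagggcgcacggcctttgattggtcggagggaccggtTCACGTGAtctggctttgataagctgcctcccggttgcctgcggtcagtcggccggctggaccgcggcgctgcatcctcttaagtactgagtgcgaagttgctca
Casp12 (chr9:5345226-5345475, plus strand): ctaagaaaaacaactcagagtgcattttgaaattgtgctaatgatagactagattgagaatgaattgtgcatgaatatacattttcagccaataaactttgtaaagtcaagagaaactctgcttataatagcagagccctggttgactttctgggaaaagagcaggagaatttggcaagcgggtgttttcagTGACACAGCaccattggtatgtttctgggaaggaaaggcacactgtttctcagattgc

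The AP-1 letters began 94 bases before the start in Serpinb2 and 12 bases before it in Il1a, and both promoters also held TATAAA, 29 and 32 bases before the start. Gm765 held TATAAA 43 bases before the start, the E-box letters of Ppp1r3c began 105 and 104 bases before it on either strand, and no match stood in Hmga2 or Crocc2. The antioxidant letters stood 49 bases before the start in Sema7a and 58 bases before it in Casp12. Over the 9060 promoters that could be matched to tested protein-coding genes (80.1%), the same 250 bases held AP-1 letters in 4.68%, TATAAA in 6.68%, the E-box in 6.31%, the antioxidant letters in 14.8%, the cyclic AMP element in 3.40% and the heat shock pair in 5.56%. A comparison of DEGs with all genes was void, as promoters were matched for 76.5% of the upregulated and 75.7% of the downregulated coding DEGs only. The printed promoters are a choice that did not follow the ranking. Among promoters searched but not printed, those of Prss46, Omd, Casp1, Casp4, Trim30a and Npas4 held no match. Those of Sned1, Aspn, Ogn, Trim30d and Rin1 held a match. Matches in the printed promoters are therefore not to be weighed against the shares over all promoters. A match is a description of letters and not a binding site.

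Most genes of ERK feedback, most tested ligands of the EGF receptor family and most immediate early genes were higher. Of 12 tested genes of ERK feedback, 10 were higher and 1 lower, with a median log2 fold change of 0.78, against 29% and 29.5% of all genes and a median of -0.006. The phosphatase genes Dusp5 (2.16) and Dusp6 (1.91) and the receptor inhibitor gene Errfi1 (1.36) led them, while Spry1 fell (-0.70). Of 8 listed ligands of the EGF receptor family, 3 were too low to test. Among the 5 tested, 4 were higher and none lower (median 1.61): Hbegf, Ereg, Btc and Nrg1. Hbegf was at 9.13, 9.87, 9.44 and 9.62 CPM in control and 54.9, 61.2, 61.5 and 62.6 CPM in A1 samples. The immediate early and AP-1 list had 21 of 26 genes higher and 4 lower (median 0.81). Egr3 was at 2.13, 3.21, 2.31 and 2.10 CPM in control and 14.2, 14.4, 13.6 and 13.1 CPM in A1 samples, and Egr2 (2.33), Fosl1 (1.86), Nr4a1 (1.51) and Myc (1.03) were higher too. Fos itself was lower, at 5.78, 3.15, 2.80 and 1.91 CPM in control and 1.13, 1.27, 0.449 and 1.36 CPM in A1 samples (log2 fold change -1.69, SE 0.49, edgeR adjusted p = 0.0126). Its control samples spread widely. Zfp36l1, which speeds the decay of early messenger RNAs, was also lower (-1.48).

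Cytokine and morphogen genes moved in both directions. Of 9 interleukins and colony-stimulating factors, 4 were higher and 3 lower (median 0.56), with Il1a and Lif (1.64) higher and Il15 (-2.04), Il6 (-1.39) and Il18 (-1.23) lower. Of 12 chemokines, 3 were higher and 6 lower (median -0.088). In the BMP list 4 were higher and 9 lower of 17 (median -0.14), and in the WNT list 5 and 11 of 19 (median -0.23). There the inhibitor genes Frzb (-1.80) and Sfrp1 (-1.13) and the receptor gene Fzd1 (-1.40) fell, and the transcription factor gene Lef1 rose (1.46). All 17 tested angiogenic factors changed, 9 up and 8 down (median 0.41). Fgf2, Pdgfa (1.26) and Pgf (1.01) were among those that rose, and Angpt1 (-1.81) and Vegfd (-1.90) among those that fell. The complement list had 2 of 11 higher and 5 lower (median -0.12), with C3 at -0.82 and C1s1 at -1.04. Of 11 prostaglandin genes, 6 were higher and 1 lower (median 0.14), led by Ptgs2 (1.78) and Ptges (1.33), the enzymes that make prostaglandin E2, while the receptor gene Ptgfr fell (-1.98). Of 9 genes of plasminogen activation, 6 were higher and 1 lower (median 0.48), among them Plaur (2.24) and Plat (1.13).

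Most actin genes rose, whereas matrix and adhesion genes went both ways, as all genes together did. In the actin list, which holds contractile proteins and targets of the serum response factor, 27 of 31 genes were higher and 1 lower (median 0.63), led by Cnn1 (2.19) and Tagln (1.69). The YAP and TEAD list had 13 of 27 higher and 5 lower (median 0.092). Among 23 collagens 8 were higher and 6 lower (34.8% and 26.1%, median -0.046), near the 29% and 29.5% of all genes. Col28a1 (1.56) and Col5a3 (0.77) stood at the upper end and Col18a1 (-1.29) at the lower end. Of 41 matrix glycoproteins and proteoglycans, 17 were higher and 15 lower (median 0.037). Matrix proteases and inhibitors gave 10 and 9 of 22 (median 0.15), with the inhibitor genes Timp3 (1.92) and Timp1 (1.40) higher and the aggrecan-cleaving Adamts5 lower (-1.76). Integrins gave 7 and 7 of 19 (median -0.094); Itga2 (1.81), Itgb3 (1.79) and Itga5 (1.30) were higher and Itga1 (-1.13) lower, and 2 of the 7 lower names are integrin-binding proteins that the name pattern took in. Of 10 tubulins, 7 were higher and 3 lower (median 0.30), with Tubb3 leading (1.45).

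Genes that make ribosomes were mostly higher. Of 62 genes of ribosome biogenesis, 59 were higher and 1 lower (median 0.60), 41 of them as DEGs. Rrp12 rose by 1.04 and Dkc1, the pseudouridine synthase of box H/ACA particles, by 0.85 on the log2 scale. Ribosomal protein genes were higher in 67 of 81 cases and lower in none, but by little (median 0.15, 2 DEGs). Cytosolic tRNA synthetases were higher in 18 of 23 and lower in none (median 0.23), and nuclear pore and transport genes higher in 35 of 53 and lower in 4 (median 0.19), with Rcc1, the exchange factor of Ran, at 0.95. Nucleotide synthesis had 26 of 37 higher and 3 lower (median 0.36), and DNA replication 27 of 43 and 3 (median 0.22), led by Orc1 (0.79). Mitosis genes divided into 12 higher and 11 lower of 42 (median 0.046), near the shares of all genes, with Mki67 at -0.50.

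Fuel genes turned in opposite directions. Glycolysis had 16 of 20 genes higher and 2 lower (median 0.37), with the glucose transporter gene Slc2a1 at 1.22 and hexokinase gene Hk2 at 0.87. Fatty acid oxidation had 25 of 30 genes lower and 2 higher (median -0.37), with Acadm, the medium-chain dehydrogenase, at -1.18 and Cpt1a, the entry enzyme, at -0.72. Glycogen genes were lower in 9 of 19 and higher in 4 (median -0.23). Nuclear genes of the respiratory chain were mostly not called, with 7 higher and 16 lower of 86 (median 0.024). Of 25 genes of amino acid synthesis and transport, 14 were higher and 3 lower (median 0.27), led by Chac1 (1.39) and the cystine transporter gene Slc7a11 (1.26).

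The primary cilium and the lysosome stood among the lists with the largest shares of lower genes. Of 51 tested cilium genes, 36 were lower and 1, Ift20, higher by little (median -0.41); with upper-quartile normalization Ift20 did not pass the test (0.12). They included transport subunits (Ift122 at -1.04, Wdr19 at -1.06), subunits of the BBSome cargo adaptor (Bbs9 at -1.15) and transcription factors of the Hedgehog pathway, which signals through the cilium (Gli2 at -1.72, Gli1 at -1.25). Lysosomal hydrolases and membrane proteins were lower in 34 of 49 and higher in 7 (median -0.24), with cathepsin F at -0.88 and the α-galactosidase gene Gla at -0.82, while cathepsin K rose (0.93). Autophagy genes were lower in 20 of 43 and higher in 7, by small amounts (median -0.12, 1 DEG). Of 302 tested genes named Zfp, most of which encode zinc finger proteins, 121 were lower and 34 higher (median -0.16). Zfp423, a preadipocyte regulator, was at -1.67.

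Genes of fat cell formation were mostly lower. Of 21 adipogenic genes, 13 were lower and 2 higher (median -0.61), with Adipoq (-1.72), Lipe (-1.54) and Cebpa (-1.01) lower and Klf5 higher (1.64). Pparg, the master regulator, was at -0.013 and did not pass the test. Osteogenic genes gave 6 higher and 4 lower of 13 (median 0.038), with Spp1 and Dmp1 (1.70) higher and Dlx5 (-2.09) and Phospho1 (-1.49) lower. MSC surface and niche genes were divided as well, 8 higher and 8 lower of 20 (median 0.032). Nes (1.80) and Cd44 (1.38) rose, while Kitl, Angpt1, Cxcl12 and Pdgfra (-0.996) fell. In the list of insulin and FoxO genes, 6 of 16 were higher and 9 lower (median -0.29); the FoxO-linked Pik3ip1 (-1.39) and Sesn3 (-1.37) were lower, as was Igf1. Notch genes gave 4 higher and 6 lower of 13 (median -0.083), with Hes1 at 2.202. Circadian genes gave 4 and 7 of 19 (median -0.073), together 57.9%, near the 58.5% of all genes. Dbp (-1.54) and Per3 (-1.16) were lower.

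Cell death and stress lists were mixed. Of 29 p53 targets, 12 were higher and 6 lower (median 0.11), together 62.1%, near the 58.5% of all genes. The death gene Pmaip1 (1.25) was higher and the death receptor gene Fas (-1.53) lower. Of 13 BCL2 family genes, 7 were higher and 2 lower (median 0.14); the lower ones were Bmf (-1.61) and Bcl2l11 (-0.76), both of the BH3-only class. The NF-κB list gave 6 and 6 of 20 (median -0.016), near the 29% higher and 29.5% lower of all genes, with the adhesion gene Vcam1 lower (-0.96). Krüppel-like factors gave 8 higher and 1 lower of 11 (median 0.28). Pentose phosphate and NRF2 targets gave 11 and 11 of 30 (median 0.018): Txnrd1, a thioredoxin reductase, was higher (0.97) and the glutathione transferase gene Gsta4 lower (-0.91). Proteasome subunits were higher in 23 of 42 and lower in 4 (median 0.11), where the immunoproteasome gene Psmb9 had the largest decrease (-1.99). Metallothionein and metal transport genes were higher in 9 of 19 and lower in 3 (median 0.13), with the transferrin receptor gene Tfrc at 1.46. Of the 9 tested histone genes, 3 were lower and none higher (median -0.37).

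The membrane traffic lists changed by small amounts. Endosomal sorting and membrane repair had 13 of 36 genes higher and 7 lower (median 0.049), together 55.6%, near the 58.5% of all genes. Vps37b (1.02) and Anxa1 (0.91) were higher. Endocytosis had 9 and 9 of 32 (median -0.017), near the shares of all genes, and the scavenger receptor gene Cd36 fell (-0.97). COPI and COPII coats gave 14 higher and 3 lower of 29 (median 0.085). Subunits of the V-ATPase, the proton pump of lysosomes, gave 4 higher and 8 lower of 18 (median -0.083), with the catalytic subunit gene Atp6v1a lower (-0.69). Of 7 tested mitochondrial messenger RNAs, 2 were lower and none higher (median -0.14).

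**Figure D3:**
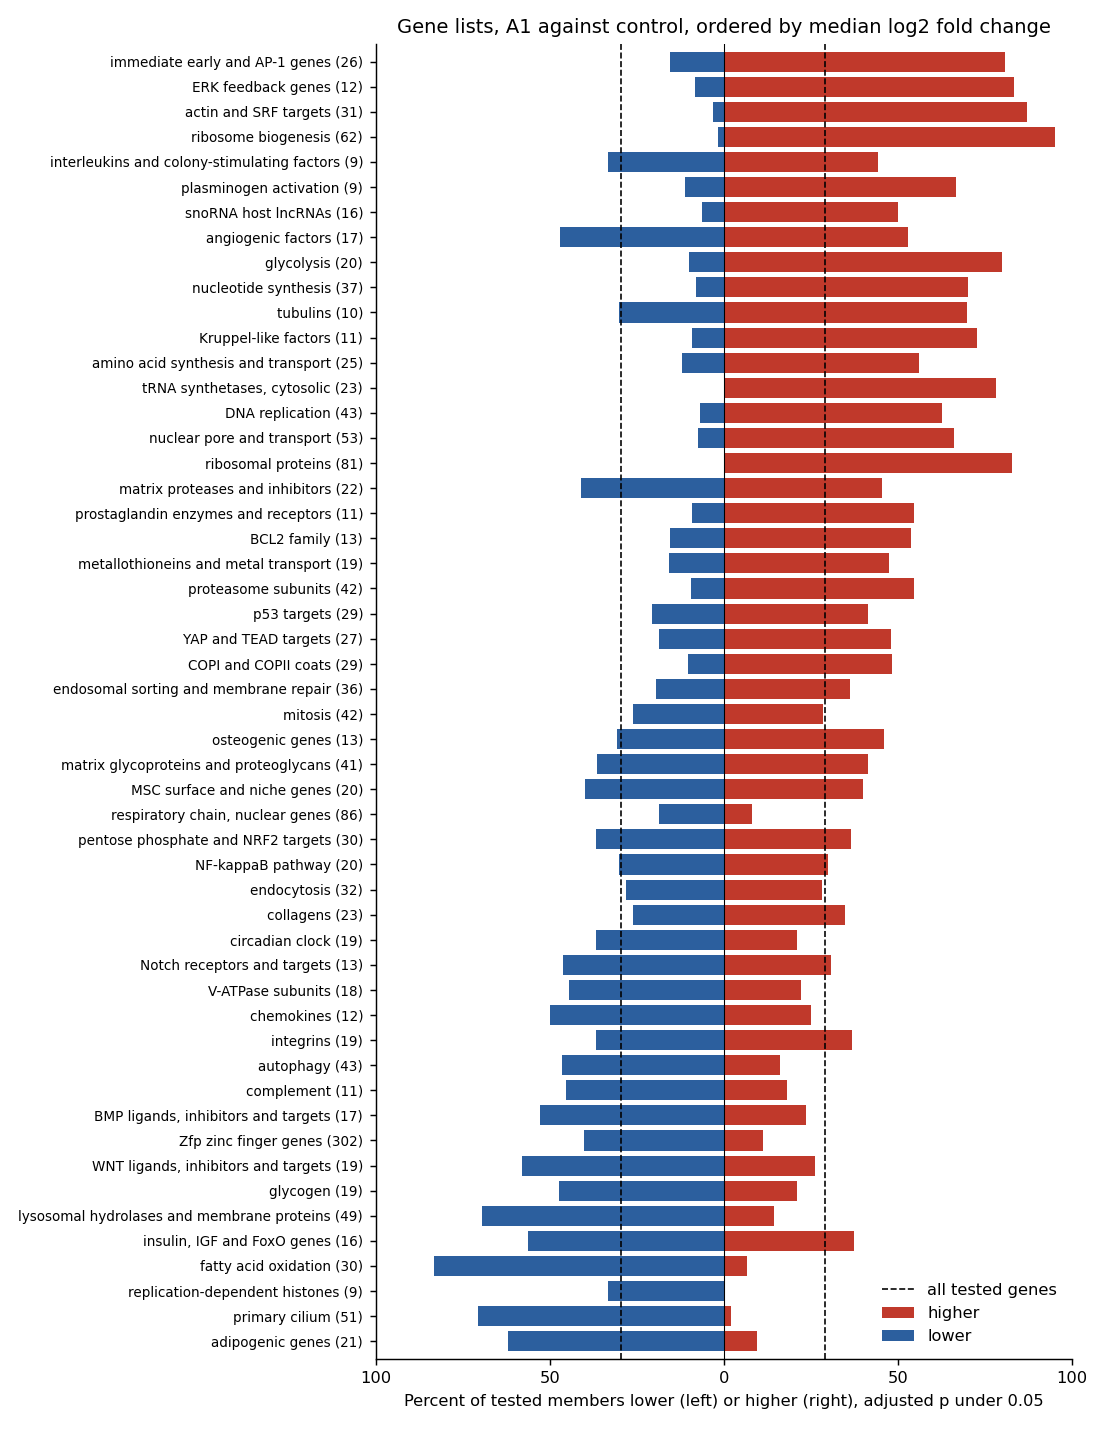
Percent of the tested members of each gene list that were lower (blue, to the left) or higher (red, to the right) with A1 at an adjusted p-value under 0.05, ordered by median log2 fold change, with the number tested in brackets. Dashed lines mark the shares over all tested genes, 29.5% lower and 29% higher; ribosome biogenesis reached 95.2% higher and fatty acid oxidation 83.3% lower.

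One A1 library stood apart in lncRNAs. In A1 replicate 2, Malat1 was at 715.5 CPM, against 204, 200.2 and 246 CPM in replicates 1, 3 and 4, and Neat1 at 418 CPM against 49.3, 61.2 and 75.5 CPM. Kcnq1ot1 was at 32.6 CPM there and at 5.81, 6.43 and 5.50 CPM in the others. These are very long lncRNAs that remain in the nucleus, and they were chosen after their values were seen. Among 429 lncRNA genes of at least 1 CPM, 9 were at least 2-fold above all 3 other A1 samples in this library, and of 10798 protein-coding genes 0 were. In each of the other 7 libraries 0 or 1 lncRNA genes were. At a common depth, A1 replicate 2 also had more genes detected, 19518 against 18211 to 18547 in the other A1 samples and 18626 to 18821 in the control samples. Its share of counts in lncRNA genes was 0.759%, against 0.596% to 0.636% in the other A1 samples. Without it, the non-coding DEGs numbered 126 up and 131 down. Lncpint, a p53-linked lncRNA, rested on it in part, at 0.730, 0.759, 1.10 and 0.925 CPM in control and 2.55, 6.65, 1.57 and 2.50 CPM in A1 samples, with a log2 fold change of 1.90 (SE 0.51, edgeR adjusted p = 0.00845) and of 1.33 without it.

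Non-coding genes responded as well. Of 1207 tested genes outside the protein-coding class, 173 were higher and 148 lower (26.6% in all), against 61.9% of the 11314 protein-coding genes. DEGs made up 19.7% and 20.9% of the classes. The median control level was 1.32 CPM for non-coding and 35.6 CPM for protein-coding genes. The 627 lncRNA genes gave 83 upregulated and 82 downregulated DEGs (26.3%), the 389 pseudogenes 29 and 12 (10.5%), and 139 unclassified loci awaiting experimental proof (TEC) 11 and 17 (20.1%). Of 26 tested small nucleolar RNA genes, 1 was called, and of 6 microRNA genes none was (edgeR, adjusted p-value). Mature small RNAs carry no poly-A tail, so that a library of this kind measures them poorly.

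The largest non-coding changes were taken from genes whose A1 and control samples did not overlap, so that this separation was fixed by the choice. Gm44275, an intergenic lncRNA beside Pbp2, was at 0.730, 1.29, 1.04 and 1.60 CPM in control and 9.77, 11.1, 9.05 and 12.1 CPM in A1 samples, a log2 fold change of 3.16 (SE 0.16, edgeR adjusted p = 4.99e-16), and of 3.14 without A1 replicate 2. Wincr1, an lncRNA known as induced by WNT signals, was at 4.08, 3.91, 4.38 and 3.58 CPM and 13.9, 14.8, 14.1 and 14.9 CPM. Increases of Gm19589 (2.57), Gm35940 (2.45), Gm49774 (2.33) and 3300005D01Rik (1.70) belonged to the same range; Gm19589 was at 3.32 without control replicate 1. On the other side, 9330175E14Rik was at 2.56, 2.57, 2.38 and 1.79 CPM in control and 0.354, 0.224, 0.449 and 0.4997 CPM in A1 samples (log2 fold change -2.58), and Gm19990 changed by -2.59, Gm43719 by -1.60 and A330074K22Rik by -1.58. Gm43719 is a TEC locus next to Sema3a, which fell as well (-1.28).

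Many lncRNA DEGs lay beside a protein-coding gene. A tested protein-coding gene lay within 5 kb of 47 of the 83 upregulated lncRNA DEGs. In 25 of these 47 pairs the neighbour was an upregulated DEG and in 2 a downregulated one, against 9.26% and 11.5% of all tested genes, coding and not. Thbs1 and Actn1 each stand in 2 of the 25 pairs. Of 61 neighbours of the 82 downregulated lncRNA DEGs, 11 were downregulated and 3 upregulated. The pairs were mainly on opposite strands, 42 of the 47 and 51 of the 61. Gm15270, which overlaps Ccn2 on the other strand, was at 1.52, 1.40, 0.426 and 1.30 CPM in control and 6.16, 7.39, 5.76 and 5.43 CPM in A1 samples (2.40, beside 3.46 for Ccn2). 8030451A03Rik overlaps Tnc and averaged 0.088 CPM in control and 0.877 CPM in A1 samples, too low in control for a firm fold. Its log2 fold change of 3.16 (SE 0.55) became 4.95 without control replicate 2. 1700006J14Rik overlaps Hmga2 and averaged 0.227 CPM in control samples, and its value of 2.28 became 2.94 without control replicate 1. Per base of transcript, however, these overlapping RNAs were faint, at 1.29%, 0.254% and 0.225% of their partners' level in A1 samples. Over the 34 upregulated lncRNAs that overlap a coding gene on the other strand, the median was 2.57% in control and 3.71% in A1 samples. Whether a small share of partner reads assigned to the wrong strand contributes was not tested.

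In other pairs the lncRNA was stronger relative to its partner, or the partners moved apart. Dio3os, which starts 896 bases from Dio3 on the other strand, was at 2.92, 2.51, 3.41 and 2.65 CPM in control and 0.991, 1.12, 0.523 and 0.785 CPM in A1 samples, and per base it stood at 103% of Dio3 in control and 144% in A1 samples. Both fell (-1.74 and -2.22). Has2os, on the strand opposite to the hyaluronan synthase gene Has2, rose by 1.37 on the log2 scale beside 2.58, and went from 77.0% to 33.5% of its level per base. Ptgs2os rose by 1.17 beside 1.78 for Ptgs2, and stood at 12.7% and 8.31% of it. In the opposite sense, Gm10734 rose (1.09) where Itga1 fell (-1.13), and Gm15050 rose (1.16) where Hoxa3 fell (-0.998). Gm16201 fell (-1.09) where Adam8 was higher (0.52), although Adam8 did not pass the test without A1 replicate 1 (0.48).

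**Figure D4:**
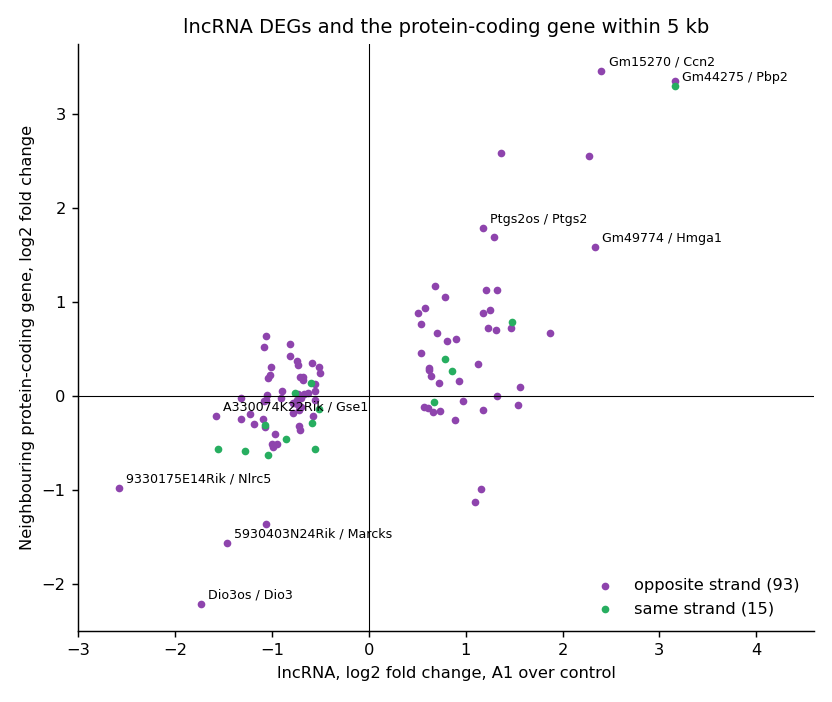
Log2 fold change with A1 of lncRNA DEGs (horizontal) and of the nearest tested protein-coding gene within 5 kb (vertical), for 93 pairs on opposite strands (purple) and 15 on the same strand (green). Upregulated lncRNAs lie mostly in the upper right, up to 3.46 for Ccn2 beside Gm15270, and downregulated ones spread on both sides of 0 on the vertical axis.

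Of 16 tested lncRNAs that host small nucleolar RNAs, which guide the modification of ribosomal RNA, 8 were higher, 1 was lower and 7 did not pass the test (median 0.42). Snhg6 was at 42.4, 38.7, 39.3 and 37.4 CPM in control and 62.7, 66.2, 63.4 and 62.1 CPM in A1 samples, and Snhg1 changed by 0.54. Snhg14 was the lower one (-0.79). Processed pseudogenes, most of them copies of abundant messenger RNAs, showed 31 higher and 6 lower of 307 (median 0.17), and their reads cannot be separated with certainty from those of the parent genes. Rps13-ps2 changed by 0.95 where Rps13 changed by 0.24, and Hspd1-ps3 by 0.47 where Hspd1 changed by 0.42. Hspd1-ps3 did not pass the test without A1 replicate 3 (0.33), control replicate 1 (0.43) or control replicate 4 (0.39).

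DEGs of the same direction also followed one another along the chromosomes. In the order of tested genes, 48 runs of at least 3 consecutive downregulated DEGs and 31 such runs of upregulated DEGs were found, which is a description without a test. As 11.5% of all tested genes were downregulated and 9.26% upregulated DEGs, some such runs would arise in any order. How many was not tested, and genes that were not tested can lie within a run. On chromosome 7 (104299894 to 104862667, GRCm38), 6 genes fell together: Trim12a, Trim12c, Trim30a, Trim30d, Usp17le and Usp17la, with log2 fold changes from -2.52 to -1.06. Usp17le (-2.06) was at -2.76 without A1 replicate 2. Trim30a was at 12.7, 14.5, 12.4 and 12.6 CPM in control and 4.04, 2.17, 3.29 and 3.57 CPM in A1 samples. On chromosome 9 (5298517 to 7184446), the inflammatory caspase genes Casp1 (-1.33), Casp4 (-1.24) and Casp12 (-1.38) were followed by Pdgfd (-0.98) and Dync2h1 (-0.70). Casp12 was at 53.01, 57.2, 49.0 and 50.9 CPM and 19.1, 20.1, 21.7 and 19.9 CPM. The small leucine-rich proteoglycan genes Aspn (-1.27), Omd (-1.87) and Ogn (-1.33) fell with Ecm2 (-0.65) and Cenpp on chromosome 13 (49464023 to 49652785). Omd was at 14.9, 17.6, 14.3 and 14.1 CPM in control and 3.96, 4.63, 4.11 and 3.998 CPM in A1 samples. Ecm2 did not pass the test without A1 replicate 1 (-0.49) or control replicate 2 (-0.44).

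Further runs of decreases were made of relatives. They held Serpinb1a, Serpinb6b, Serpinb9 and Serpinb9b (-2.32 to -0.74), Apol7a, Apol9a, Apol10b and Apol9b (-2.09 to -0.85), Ces1d, Ces1f and Ces1g with Gnao1 (-1.07 to -0.57), and 7 protocadherin beta genes (-1.05 to -0.50). Apol7a did not pass the test without A1 replicate 1 (-0.72), A1 replicate 4 (-0.67) or control replicate 4 (-0.77), nor with DESeq2 (-0.85). Reads of such near-identical copies can be split between them, so that single members are uncertain. Sema3d, Sema3a and Sema3e, which encode guidance factors, fell with Gm43719 between them. Among the increases, 6 genes of chromosome 10 (120227070 to 120901888) included Hmga2, an architectural chromatin protein of growing cells, at 114, 126, 127 and 129 CPM in control and 699, 724, 742 and 742 CPM in A1 samples, with the lncRNAs 1700006J14Rik and 4930471E19Rik next to it. The latter had 6 counts in the control samples together and 66 in the A1 samples, too few in control for a fold. Psme2b, Olfr56, 9930111J21Rik2 and Ifi47 rose together on chromosome 11 (0.85 to 3.46), and Hk2, M1ap, Dok1 and Loxl3 on chromosome 6 (0.86 to 1.23). The annotated span of Olfr56 encloses Ifi47 on the same strand and 9930111J21Rik2 on the other, so that these genes are not separate neighbours. Whether they share reads was not tested. On chromosome 19, Npas4 (2.59), Slc29a2 (1.94) and Rin1 (1.16) rose with a TEC locus between them.

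The share of downregulated DEGs varied with the level and span of the genes. In the least expressed quintile of the protein-coding genes, 26.1% were downregulated and 12.2% upregulated DEGs, and in the most expressed quintile 4.64% and 10.0%. The median average level was 3.44 log2 CPM for downregulated and 5.07 for upregulated coding DEGs. In the quintile with the longest gene span, 15.1% were downregulated and 11.3% upregulated DEGs, and 39.8% of genes were lower at an adjusted p-value under 0.05 against 26.7% higher. In the shortest quintile, 25.4% were lower and 33.0% higher. Transcript GC content separated the increases, with 5.92% upregulated DEGs in the quintile of lowest and 11.4% in the quintile of highest GC, while downregulated DEGs took 12.1% and 11.4%. Level was averaged over samples that include the A1-treated ones, so that a decrease moves a gene toward the lower and an increase toward the higher quintiles. These are shares across genes, which are not replicates, and level, span and GC content are related to one another.

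**Figure D5:**
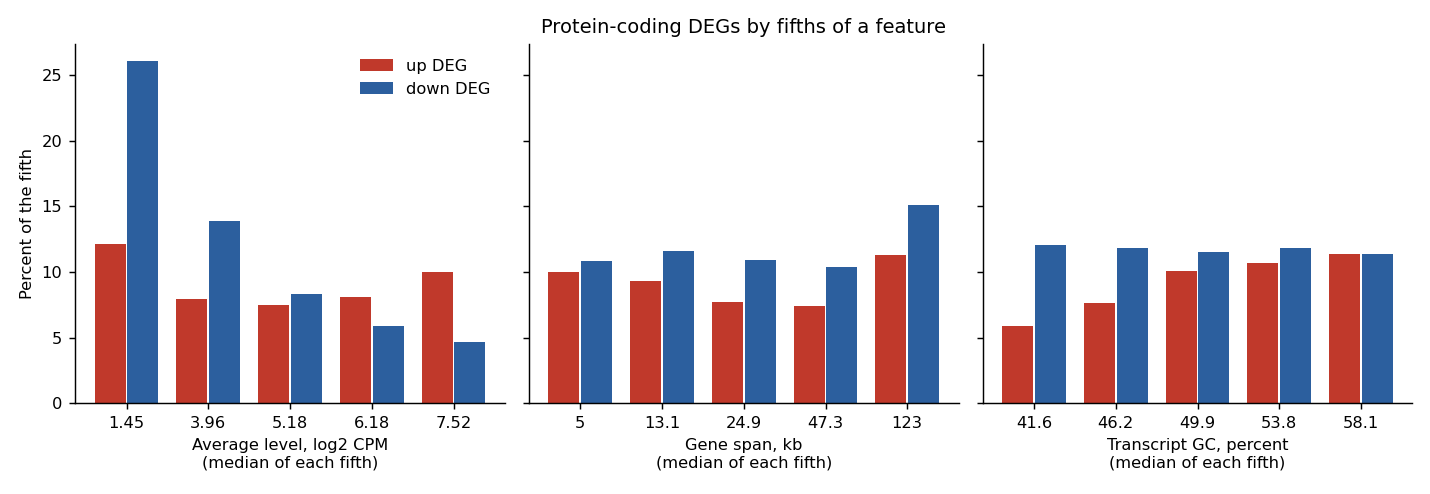
Percent of protein-coding genes that were upregulated (red) or downregulated (blue) DEGs in each quintile of average level, gene span and transcript GC content, each quintile marked by its median. Downregulated DEGs decline from 26.1% in the lowest to 4.64% in the highest quintile of level, and upregulated DEGs rise from 5.92% to 11.4% with GC content.

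As shares of a library, none of 8 measures of RNA composition passed its test, which could hardly be passed. The smallest possible p survives the adjustment only if most of the 8 measures reach it together, so that no absence of change follows. Mitochondrial messenger RNAs made up 3.05% ± 0.113 of all counts in control and 2.65% ± 0.210 in A1 samples (mean ± SD, n = 4), and the A1 values lay under all control values (exact two-sided permutation test, p = 0.0286, the smallest that 4 against 4 samples can give, adjusted p = 0.114 over 8 measures). Histone genes of the replication-dependent families had the same p, at 0.0272% ± 0.00068 and 0.0188% ± 0.000464; 9 of their 68 genes were abundant enough to test and the list includes H1f0, a linker histone outside the replication group. Polyadenylated libraries hold few histone messages. Ribosomal protein genes took 3.32% ± 0.187 and 3.50% ± 0.0884 (p = 0.171, adjusted p = 0.343, exact permutation test), and lncRNA genes 0.656% ± 0.0217 and 0.652% ± 0.0731 (p = 0.971, adjusted p = 1, exact permutation test). The difference of the lncRNA share (A1 minus control) was -0.00383 percentage points, and -0.0394 without A1 replicate 2. Nuclear ribosomal RNA varied from 0.260% to 1.01% between libraries of both groups, and 6 of the 13 mitochondrial messenger RNA genes were too low to test, so that the mitochondrial share rests on the other 7.

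The same genes can be set beside their values in the A1 + OVA samples, which share the control samples. Log2 fold changes against control there were 5.57 for Serpinb2, 3.62 for Sema7a, 3.63 for Ccn2, -2.22 for Kitl, -2.45 for Bmp4 and -1.22 for Cxcl12. For Egr3 the value was 1.41 beside 2.50 with A1 alone, for Fos -0.74 beside -1.69, for Spp1 0.93 beside 1.47 and for 9330175E14Rik -1.15 beside -2.58. The differences between the treatments were not tested here.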

How the data were processed

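Polyadenylated RNA of 12 samples of mouse MSCs was sequenced in paired ends from stranded libraries, made from RNA with an integrity number above 8. The authors deposited raw counts per Ensembl gene; per the labels and methods, reads were demultiplexed with bcl2fastq 2.20, aligned with STAR 2.7 to GRCm38 and counted by strand with featureCounts 2.0. Reads shared by near-identical genes can be lost or split in such counts. Of the 55487 genes in the table, 99.5% were matched to a GENCODE annotation of GRCm38 of an earlier release than the authors', which gave symbols, classes, positions and lengths.

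All 12 samples in 3 groups were fitted with edgeR 4.0.16 in R 4.3.3 (TMM normalization, filterByExpr, robust quasi-likelihood test of A1 against control), with Benjamini-Hochberg adjustment over the 12521 genes kept. Genes with an adjusted p-value under 0.05 were called higher or lower, and DEGs were those that also differed by 0.5 or more on the log2 scale. The study analysed protein-coding genes with DESeq2, which was run as an alternative (1.42.0), beside other normalizations, count filters, thresholds, a fit of 8 samples, a replicate block and each sample left out. Shares of counts were compared by exact permutation. The 4 samples of a group were no copies of each other, as each pair differed by a chi-square of 2.18 to 9.00 per gene. They were not equally far apart. A1 replicates 1 and 3 (2.88) and 2 and 4 (3.41) were closer than the other A1 pairs (6.79 to 9.00). Control replicates 3 and 4 (2.18) were closer than the other control pairs (4.32 to 6.90). Why was not tested, and the samples of a group may not be independent. In data simulated from these libraries for A1 against control, over 12288 genes, 104 genes were changed by 0.5 and 93 by 1 on the log2 scale. The edgeR test recovered 80.8% and 96.8% of them, with 9 false calls. Far fewer genes were changed there than were called in the data, and the simulated spread followed only its trend with level. Recovery in the data may therefore differ.

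Named genes were the 15 largest coding increases and decreases of at least 1 log2 CPM with samples of the groups apart, the 8 largest non-coding ones of at least 0 log2 CPM, the 6 largest gains and losses of CPM, up to 4 each way in every gene list, and genes in runs of neighbours. Outside the rule, and chosen after their values were seen, are Cebpa, Cpt1a, Ift122, Wdr19, Myc, Nr4a1, Pdgfra and Pparg, the pseudogenes with their parents, the lncRNAs that set A1 replicate 2 apart, and the lncRNA pairs of Tnc, Has2, Ptgs2, Itga1, Hoxa3 and Adam8. The 59 lists, the members and the rule were chosen with earlier results of these data known. Some genes that the rule selects are not reported here. Promoter sequences come from RefSeq (GRCm38.p6). With 13702348 to 16881995 counts per A1 or control sample, a floor of 3 counts covers counting error only.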

Additional observations from a re-analysis of the deposited data

Results flagged for a closer look

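In 30 of 440 groups of 4 values tested, 1 sample lay so far from the other 3 that its gap divided by the range of the group exceeded the Dixon critical value at a confidence of 95%. Chance gives about 1 in 20 such groups, and over all tested genes 5.26% of groups passed. The share among the groups here was 6.82%, and some genes were included because of this spread. The values that follow are these gap ratios. In A1 replicate 1 the sample stood apart for Col18a1 (0.968). In A1 replicate 2 the sample stood apart for Bbs9 (0.947), Col28a1 (0.874), Cxcl5 (1.00), Kcnq1ot1 (0.966), Malat1 (0.911), Neat1 (0.929), Npas4 (0.915) and Ppp1r3c (0.966). In A1 replicate 3 the sample stood apart for Ces1f (0.932) and Hspd1-ps3 (0.868). In A1 replicate 4 the sample stood apart for Casp1 (0.903), Egr2 (0.916), Gm19589 (0.928), Lipe (0.858) and the pseudogene share (0.913). In control replicate 1 the sample stood apart for 1700006J14Rik (0.854), Ces1f (0.881), Fzd1 (0.841), Rps13-ps2 (0.894), the lncRNA share (0.900) and the pseudogene share (0.972). In control replicate 2 the sample stood apart for C1s1 (0.929), Dusp6 (0.877), M1ap (0.964), Rin1 (0.952), Sesn3 (0.957) and Trim30a (0.831). In control replicate 4 the sample stood apart for 4930471E19Rik (0.980) and Gm10734 (0.832). Malat1, Neat1 and Kcnq1ot1 were all far higher in A1 replicate 2 than in the other A1 samples, as described with the non-coding genes; why this library differs was not tested. The value of Cxcl5 rests on 0 or 1 count in the A1 samples, where a single read sets the ratio.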

How the results depend on the processing

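Over all settings tried (DESeq2, other normalizations, other count filters, a fit of 8 samples, protein-coding genes alone, a replicate block and each sample left out), no gene called in both that setting and the reported fit had the opposite direction. With a test against a log2 fold change of 0.5, 726 upregulated and 752 downregulated genes remained past the threshold (44 and 32 of them non-coding), and with a threshold of 1 there were 375 and 464 (48 and 43). Non-coding genes depended on the count filter, through the number of genes tested. With no filter 356 were higher and 235 lower, with 316 and 202 DEGs. With at least 10 counts in every sample 94 were lower, with 72 upregulated and 56 downregulated DEGs. Upper-quartile normalization lowered the median of all genes from -0.006 to -0.044, and the list medians that moved with it were -0.18 for BMP ligands, inhibitors and targets, 0.59 for actin and SRF targets, 0.053 for YAP and TEAD targets, -0.45 for primary cilium, -0.28 for lysosomal hydrolases and membrane proteins, -0.12 for V-ATPase subunits, -0.16 for autophagy, 0.011 for endosomal sorting and membrane repair, -0.055 for endocytosis, 0.047 for COPI and COPII coats, -0.02 for pentose phosphate and NRF2 targets, -0.41 for fatty acid oxidation, 0.19 for tRNA synthetases, cytosolic, 0.093 for metallothioneins and metal transport, 0.56 for ribosome biogenesis, 0.007 for mitosis, 0.066 for p53 targets and -0.007 for MSC surface and niche genes. With no count filter, the medians that moved were -0.17 for BMP ligands, inhibitors and targets, -0.14 for autophagy, -0.041 for endocytosis, 0.061 for COPI and COPII coats, 0.21 for tRNA synthetases, cytosolic, 0.11 for metallothioneins and metal transport, 0.57 for ribosome biogenesis and 0.081 for p53 targets. With at least 10 counts in every sample they were 0.24 for interleukins and colony-stimulating factors, -0.37 for WNT ligands, inhibitors and targets, -0.59 for complement, -0.36 for primary cilium, -0.11 for glycogen, 0.16 for osteogenic genes and -0.034 for MSC surface and niche genes. With 8 samples in the fit they were -0.37 for WNT ligands, inhibitors and targets, -0.31 for complement, -0.17 for glycogen, 0.16 for osteogenic genes and -0.014 for MSC surface and niche genes.

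When each sample was left out in turn, there were 1157 to 1204 upregulated and 1402 to 1470 downregulated DEGs, and the list medians that moved by more than their spread ran from -0.32 to 0.008 for complement, from 0.14 to 0.22 for prostaglandin enzymes and receptors, from -0.053 to 0.096 for matrix glycoproteins and proteoglycans, from 0.073 to 0.14 for YAP and TEAD targets, from -0.13 to -0.094 for autophagy, from 0.029 to 0.077 for endosomal sorting and membrane repair, from -0.026 to 0.013 for endocytosis, from 0.081 to 0.11 for COPI and COPII coats, from -0.24 to -0.14 for glycogen, from 0.10 to 0.14 for metallothioneins and metal transport, from 0.76 to 0.86 for immediate early and AP-1 genes, from 0.58 to 0.61 for ribosome biogenesis, from -0.44 to -0.28 for replication-dependent histones, from 0.069 to 0.13 for p53 targets and from -0.67 to -0.59 for adipogenic genes. The median of the matrix glycoproteins turned to -0.053 without A1 replicate 2 and that of endocytosis to 0.013 without control replicate 3. The causes of these shifts were not tested.

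The labels give the same replicate numbers to each group, but samples of the same number did not deviate together (correlations from -0.083 to 0.161), so that the numbers were not treated as pairs. With the replicate block 3651 genes were higher and 3709 lower, with 1165 and 1444 DEGs. DESeq2 called 3488 and 3389. Depth limits the non-coding genes, at a median of 1.32 CPM in control samples and a median standard error of 0.27 on the log2 scale, against 0.063 for protein-coding genes.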
